A study of Mus musculus with 4 samples.

Results

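Fcgr1, Fcgr2b, Fcgr3 and Fcgr4 encode the mouse receptors for the constant part of IgG, and Fcer1g and Tyrobp encode adaptor chains through which receptors of immune cells signal. These 6 genes, of 32285 features in the single-cell count matrices, were found by symbol and followed through 18 cell classes of a mouse tumour, with their UMIs (molecules counted through unique molecular identifiers) summed per library and class. The cells were sorted for CD45 from subcutaneous tumours of MC38, a mouse colorectal tumour line, in mice aged 8 weeks. Libraries cKO-1 and cKO-2 are from Trim25 cKO mice, conditional knockouts of an E3 ubiquitin ligase gene, and libraries WT-1 and WT-2 from WT mice. Every mouse of both genotypes carried the same tumour line, and the series title places the ablation of Trim25 in T cells. The Cre driver, the deleted exons, the strain, and whether a library is 1 animal or a pool are not stated in the sources at hand, so each p-value reflects the spread among the libraries alone, and that spread may be technical.

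Fc gamma receptors let cells respond to targets coated with antibody. The product of Fcgr1 binds single IgG molecules with high affinity, while those of Fcgr3 and Fcgr4 bind immune complexes. All 3 reach the surface and signal through the Fc receptor gamma chain, the product of Fcer1g, whose ITAM motif recruits the kinase Syk. The product of Fcgr2b carries an inhibitory ITIM motif, recruits the phosphatase encoded by Inpp5d and opposes the activating receptors; it is also the Fc gamma receptor of B cells. Tyrobp encodes DAP12, the ITAM chain of TREM family receptors, of Siglec-H in plasmacytoid dendritic cells and of several NK cell receptors. Mouse NK cells are known to carry the Fcgr3 product, and macrophages and monocytes the whole set, through which antibodies against tumour or T cell antigens can lead to phagocytosis and killing.

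Of the 6 genes, 4 lie within 275749 bases of chromosome 1 on GRCm38 (GENCODE vM21). Fcgr2b lies at chr1:170958617-170976547 on the minus strand and Fcgr4 at chr1:171018920-171029761 on the plus strand. Fcgr3 lies at chr1:171051174-171064935 on the minus strand and Fcer1g at chr1:171229572-171234365 on the minus strand. Fcgr1 lies at chr3:96282909-96293969 on the minus strand, and Tyrobp at chr7:30413760-30417585 on the plus strand. The 250 bases before the start are shown for Fcgr1 (chr3:96293970-96294219, minus strand) and Fcgr4 (chr1:171018676-171018925, plus strand), from RefSeq on GRCm38.p6, because Fcgr1 was highest and Fcgr4 high in a phagocyte cluster whose leading genes include interferon-induced ones, as described below. Capitals mark matches, on either strand, to the letters searched: ISRE (GAAA, any 2 bases and GAAA, the interferon-stimulated response element) and PU.1 (GAGGAA, the core of the site of the myeloid factor encoded by Spi1).
Fcgr1: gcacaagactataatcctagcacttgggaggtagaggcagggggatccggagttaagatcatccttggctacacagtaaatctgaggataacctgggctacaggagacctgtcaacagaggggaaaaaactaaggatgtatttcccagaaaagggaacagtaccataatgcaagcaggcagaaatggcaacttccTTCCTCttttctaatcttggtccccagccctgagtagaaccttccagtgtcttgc
Fcgr4: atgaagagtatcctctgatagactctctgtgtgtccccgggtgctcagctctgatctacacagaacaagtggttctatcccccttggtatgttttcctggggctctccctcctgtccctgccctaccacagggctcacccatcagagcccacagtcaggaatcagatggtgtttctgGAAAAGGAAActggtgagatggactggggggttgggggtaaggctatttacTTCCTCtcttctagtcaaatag
The Fcgr1 window held a PU.1 match from 55 to 50 bases before the start and no ISRE match. The Fcgr4 window held an ISRE match, GAAAAGGAAA, from 73 to 64 bases before the start and a PU.1 match from 22 to 17 bases before it; the matches did not overlap. Over 32851 RefSeq promoter windows of that length, 2.977% held the ISRE letters and 23.253% the PU.1 letters. The Fcgr3 windows held PU.1 letters alone and those of Fcgr2b and Fcer1g neither, which says only that these letters are not in these windows. For Tyrobp no window was at hand.

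The 4 libraries held 96751399 to 127449324 UMIs. Between 8205 and 12092 cells per library passed the filters, 39906 in all. Median depth was 7795.5 to 10017 UMIs per cell, and library pairs shared 42 to 59 cell barcodes. The labels name the tissue colon and the cell type as tumour cell lines, whereas 90.1 to 94.4% of the cells held a UMI of Ptprc, which encodes CD45, and 0.029 to 0.058% one of Krt8, 0.058 to 0.138% one of Krt18 and 2.25 to 3.08% one of Epcam, genes of epithelial cells. In the pooled T cells Trim25 measured 50.7 and 45.9 CPM (UMIs per 1000000 UMIs of the class) in the cKO libraries against 63.6 and 60.5 CPM in the WT libraries, a log2 difference of -0.34 ± 0.11 (SE; adjusted p = 0.354, edgeR quasi-likelihood test). These counts are of 3′ ends, and the deleted part of Trim25 is not known here, so they do not check the knockout. Classes were named from marker genes after clustering without the 6 genes, so class levels are a description with no test. In 3′ counts the level of a gene can be compared between classes and libraries, not with that of another gene.

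Each activating receptor had macrophages among the 3 classes with its highest levels. Fcgr1 averaged 480 ± 34.4 CPM in macrophages and 469 ± 37.2 CPM in monocytes (SD over 4 libraries, both genotypes together, here and below). A cluster led by Il1b and Cxcl2, which encode an inflammatory cytokine and a neutrophil chemokine, kept no class name because its leading genes included a marker of conventional dendritic cells; it followed with 408 ± 40.4 CPM of Fcgr1. The libraries of these 3 classes overlapped. Non-classical monocytes with 275 CPM, conventional dendritic cells of type 2 (cDC2) with 249 CPM and neutrophils with 248 CPM of Fcgr1 came next. The step from neutrophils down to conventional dendritic cells of type 1 (cDC1), at 73.9 CPM, was 3.36-fold with no overlap. Fcgr1 was lowest in NK cells, at 13.4 and 14.7 CPM in the cKO libraries and 12.77 and 12.99 CPM in the WT libraries.

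Fcgr3 had its highest levels in neutrophils (458 CPM), the Il1b and Cxcl2 cluster (457 CPM), macrophages (457 CPM) and monocytes (398 CPM), whose libraries overlapped. Neutrophils rested on few cells, 95 and 33 in the cKO libraries and 50 and 87 in the WT libraries. Below them stood non-classical monocytes with 294 CPM and mast cells and basophils with 256 CPM of Fcgr3. After a 3.08-fold step without overlap came naive-like T cells with 83.1 CPM, NK cells with 80.7 ± 2.99 CPM and cDC2 with 76.1 CPM. Fcgr4 was high in macrophages (359 CPM), non-classical monocytes (332 CPM), neutrophils (314 CPM) and the Il1b and Cxcl2 cluster (265 CPM). Classical monocytes held 164 CPM of Fcgr4, apart from and 1.62-fold below that cluster, and cDC2 came next at 64.7 CPM, 2.53-fold below the monocytes. Non-classical monocytes thus stood below monocytes in Fcgr1 and above them in Fcgr4, in each library.

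**Figure D1:**
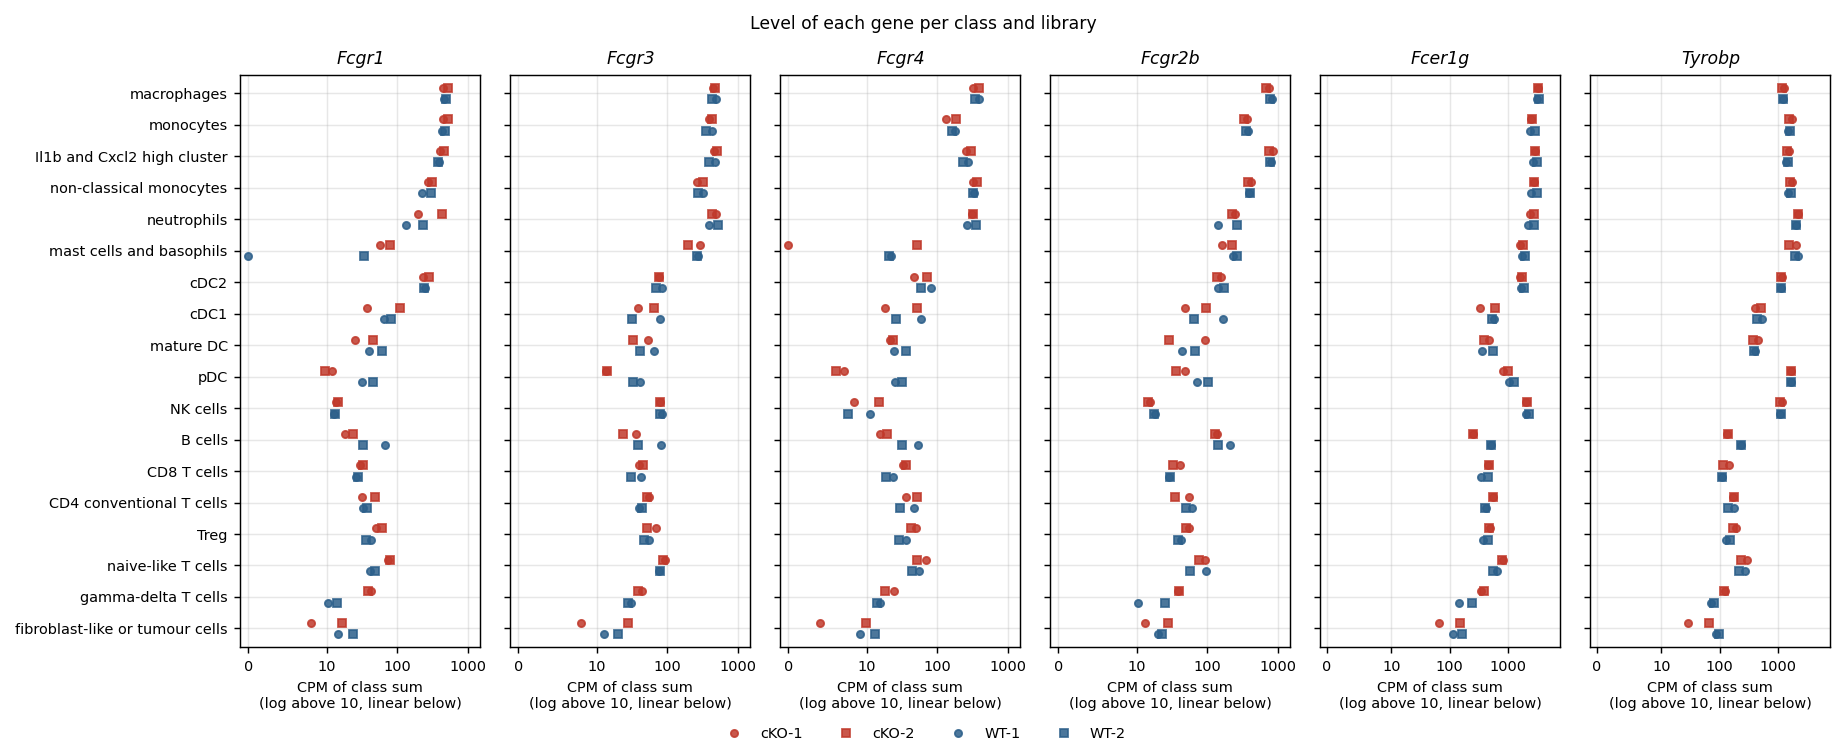
Levels of the 6 genes in 18 cell classes: each panel is 1 gene, the x axis is CPM of the class sum (log scale above 10 CPM, linear below), the y axis lists the classes, and each mark is 1 library (cKO red, WT blue; circles replicate 1, squares replicate 2). Fcgr1 and Fcgr4 are highest in macrophages, Fcgr3 in neutrophils and Fcgr2b in the Il1b and Cxcl2 cluster, Fcer1g and Tyrobp reach NK cells and plasmacytoid dendritic cells (pDC) as well, and the 4 marks of most classes lie close together.

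Fcgr2b, the inhibitory receptor, was highest in the Il1b and Cxcl2 cluster (791 CPM) and in macrophages (748 CPM). A step of 1.88-fold without overlap separated macrophages from non-classical monocytes, at 398 CPM, and monocytes, at 361 CPM. Mast cells and basophils (219 CPM), neutrophils (219 CPM), B cells (155 CPM) and cDC2 (153 CPM) followed after a further step of 1.64-fold, and NK cells were lowest with 16.4 CPM. In B cells Fcgr2b measured 139 and 126 CPM in the cKO libraries against 211 and 143 CPM in the WT libraries, which is 28.1% of its level in the pooled phagocytes (macrophages, both monocyte classes and the Il1b and Cxcl2 cluster). The other 5 genes stood at 8.1 to 13.2% of the phagocyte level in B cells, beside 7.4% for Lyz2, the lysozyme gene of myeloid cells, and 14.7 to 16.8% for the complement genes C1qa, C1qb and C1qc, which B cells should lack. Others of the 12 myeloid genes taken as a background stood as high as Fcgr2b in B cells or near it, with Apoe at 29.8%, Cst3 at 29.5%, Spi1 at 22.3% and Ctss at 21.1% of their phagocyte levels. Antisense gene Gm38204 overlaps Fcgr2b on the opposite strand, by up to 227 bases of an exon. Fcgr2b and Fcgr3 are paralogs alike in their extracellular part, and whether the counting split reads between them was not tested.

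The ratio of UMIs of the 3 activating receptors to UMIs of Fcgr2b, which is comparable between classes but not an excess of one protein over another, was 1.63 and 2.07 in cKO macrophages against 1.61 and 1.66 in WT macrophages. In monocytes it was 2.63 and 3.37 in the cKO libraries against 2.71 and 2.77 in the WT libraries, above the macrophages in every library. In the Il1b and Cxcl2 cluster it was 1.33 and 1.71 in the cKO libraries against 1.42 and 1.28 in the WT libraries. In neutrophils it was 4.05 and 5.26 in the cKO libraries against 5.49 and 4.27 in the WT libraries. Library cKO-2 had the highest ratio in macrophages, monocytes, non-classical monocytes and the Il1b and Cxcl2 cluster, while cKO-1 lay below both WT libraries in monocytes and non-classical monocytes.

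The signalling chains reached further than the receptors. Fcer1g averaged 3314 CPM in macrophages, 2956 CPM in the Il1b and Cxcl2 cluster, 2839 CPM in non-classical monocytes, 2590 CPM in monocytes, 2572 CPM in neutrophils and 2131 CPM in NK cells, each overlapping the next. Mast cells and basophils, where the gamma chain serves the IgE receptor, held 1784 CPM of Fcer1g and cDC2 1752 CPM, followed 1.69-fold lower by pDC at 1037 CPM. Tyrobp had another order, with neutrophils at 2149 CPM, mast cells and basophils at 1964 CPM and pDC at 1701 ± 8.54 CPM first. In pDC Tyrobp measured 1706 and 1693 CPM in the cKO libraries against 1695 and 1710.0 CPM in the WT libraries. Macrophages, at 1228 CPM of Tyrobp, stood apart from and below non-classical monocytes (1641 CPM), monocytes (1620.4 CPM) and the Il1b and Cxcl2 cluster (1463 CPM).

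Across the 18 classes the profiles of the 6 genes were alike to different degrees, measured as Pearson's r of mean log2(CPM + 1), a description over classes that share libraries and free RNA. Among the 6, Fcgr1 and Fcgr4 were most alike (r = 0.943) and Fcgr4 and Tyrobp least (r = 0.559). Of 11661 genes at 10 CPM or more in at least 1 class, the profile most like that of Fcer1g was Tyrobp (r = 0.920), followed by Adssl1 (0.915) and Aoah (0.887). The profile most like that of Tyrobp was Fcer1g, followed by Rnf130 (0.918) and Trf (0.897). Fcgr1 was nearest to Tgfbi (0.985), Ms4a6c (0.982) and Ms4a6d (0.975), and Fcgr2b to Ctsc (0.943), Lpcat2 (0.941) and Csf1r (0.935). Fcgr3 was nearest to Itgam (0.940), Hk3 (0.934) and Lilrb4a (0.931), and Fcgr4 to Clec4a1 (0.975), Mtus1 (0.972) and Lst1 (0.970).

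Of the named classes, monocytes and macrophages, with 19.6% and 15.1% of all UMIs, gave the largest shares of the UMIs of each of the 6 genes. Monocytes gave 33.8% of the Fcgr1 UMIs and 30.7% of those of Fcgr3, and macrophages 26.7% and 27.1% of the same genes (means of 4 libraries). For Fcgr2b and Fcgr4 the order turned, with 34.2% and 34.9% from macrophages against 21.7% and 20.9% from monocytes. NK cells held 10.99% of all UMIs and gave 11.1% of those of Fcer1g and 11.2% of those of Tyrobp.

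Within the phagocytes, clustered again without the 6 genes into 17 clusters, the receptors were highest in different clusters. Fcgr1 peaked in a cluster led by Lipg, Kdr, Slamf7, Ifi44 and Iigp1, of which Ifi44 and Iigp1 are interferon-induced, with 775 and 828 CPM in the cKO libraries against 771 and 872 CPM in the WT libraries. A cluster led by Rsad2, Cmpk2, Ifit1bl1 and Cxcl10, which are interferon-induced genes, followed with 755 and 768 CPM of Fcgr1 in the cKO libraries against 669 and 758 CPM in the WT libraries. All libraries of these 2 clusters lay above the mean of every other cluster, the next being at 534 CPM. A classical monocyte cluster led by Stxbp6, Nrg1 and F13a1 was lowest, with 99.6 and 115 CPM in the cKO libraries against 86.3 and 125 CPM in the WT libraries. A further cluster with interferon-induced leading genes, among them Gbp5 and Cxcl10, held 391 CPM of Fcgr1 and 138 CPM of Fcgr4. Fcgr4 was high in the Lipg cluster, at 472 and 487 CPM in the cKO libraries against 505 and 484 CPM in the WT libraries. It stood at 456 CPM in a cluster of non-classical monocytes, led by Heg1, Cd300e, Ear2 and Ace. It was highest, at 606 CPM, in a shallow cluster led by C1qa, Cd63 and Cd81 whose cells had a median depth of 0.21 times that of their sample. The F13a1 cluster was again lowest for Fcgr4, with 24.0 and 24.9 CPM in the cKO libraries against 29.5 and 21.0 CPM in the WT libraries.

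Fcgr2b followed another pattern across these clusters. It was highest in a cluster led by H2-Ab1 and H2-Aa, which encode MHC class II chains, with 982 and 853 CPM in the cKO libraries against 1002 and 955 CPM in the WT libraries. It was next, at 842 CPM, in one led by Gpnmb, Hilpda and Egln3, of which Hilpda and Egln3 are hypoxia-induced. In the Rsad2 cluster Fcgr2b stood at 404 CPM, and the ratio of activating receptors to Fcgr2b there was 3.22 and 3.84 in the cKO libraries against 3.43 and 3.39 in the WT libraries. In the Gpnmb cluster that ratio was 1.10 and 1.41 in the cKO libraries against 1.20 and 1.15 in the WT libraries, with no overlap between these 2 clusters. Fcgr3 was highest in another shallow cluster, led by Mt2 and Mmp12, at 602 CPM, and stood at 324 CPM in the Lipg cluster where Fcgr1 peaked. Fcer1g ranged from 2126 CPM in the F13a1 cluster to 5262 CPM in the shallow C1qa cluster, and Tyrobp from 1080.4 CPM in the Gpnmb cluster to 1803 CPM in the F13a1 cluster.

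Among the Fc gamma receptors, NK cells stood above the level of the pooled T cells for Fcgr3, though naive-like T cells held as much per UMI (83.1 CPM). After each cell was thinned to 2000 UMIs, 13.7 ± 1.48% of NK cells held an Fcgr3 UMI against 8.50 ± 0.79% of pooled T cells (SD over 4 libraries; 49.6% and 25.6% without thinning, at median depths of 9977 to 13566 and 6136.5 to 7756 UMIs). For Fcgr1, Fcgr2b and Fcgr4 the thinned shares of NK cells, 3.34%, 4.32% and 2.32%, were below those of T cells, 7.43%, 8.34% and 6.60%. T cells were taken here as a background, and whether some of them express these receptors was not tested. Thinning left out 94 of 2990 NK cells and 324 of 4514 T cells. Fcgr3 measured 77.9 and 80.0 CPM in cKO NK cells against 84.9 and 79.9 CPM in WT NK cells. This was 19.4% of the phagocyte level, where Fcgr1, Fcgr2b and Fcgr4 stood at 3.0 to 4.0%, Lyz2 at 2.0% and the C1q genes at 9.0 to 9.8%; Cst3, at 13.2%, was the highest of the 12 background genes in NK cells. Fcer1g and Tyrobp were at 73.3% and 76.0% of the phagocyte level, and 96.9% and 86.7% of thinned NK cells held a UMI of each. Over the NK clusters Fcgr3 was highest in one led by the granzyme genes Gzmg, Gzmd and Gzmf, with 120.4 and 132 CPM in the cKO libraries against 134 and 116 CPM in the WT libraries, where Fcgr1 was at 8.6 CPM and Fcgr4 at 4.9 CPM.

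**Figure D2:**
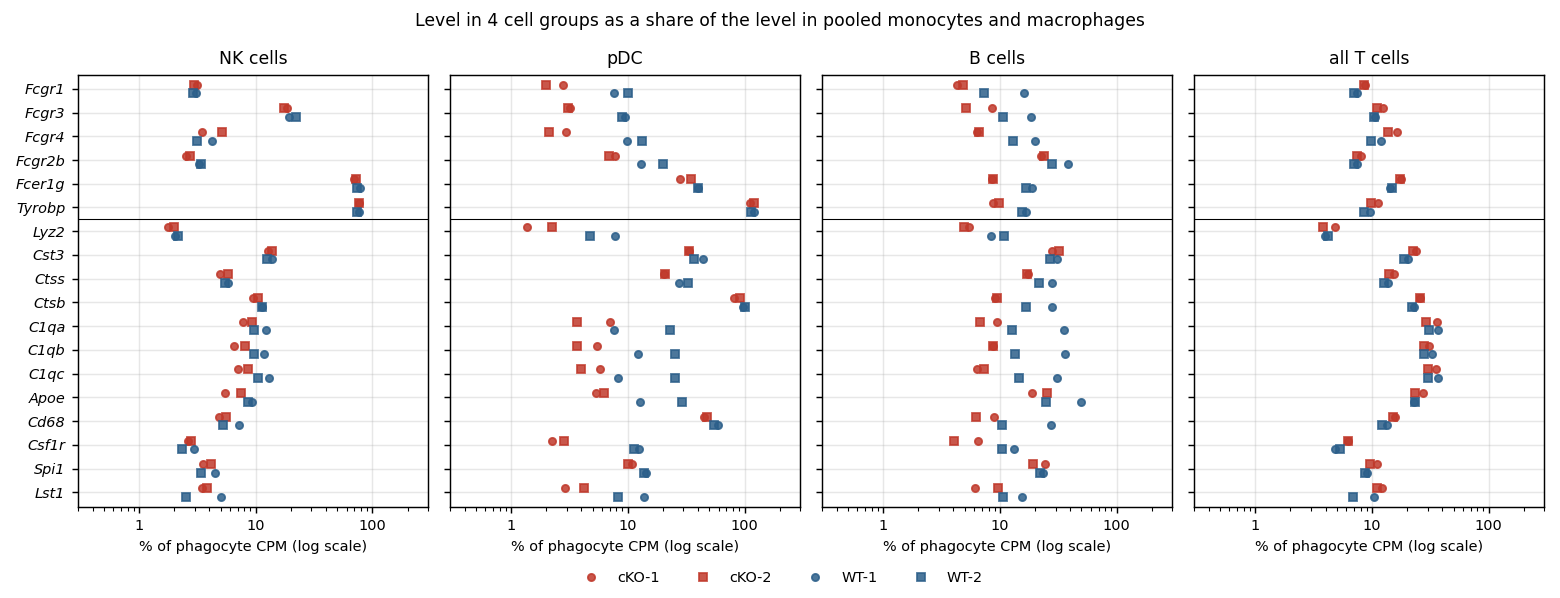
The 6 genes and myeloid genes taken as a background in NK cells, pDC, B cells and pooled T cells: the x axis is CPM as a percentage of the CPM in pooled phagocytes (log scale) and each mark is 1 library (cKO red, WT blue). Fcer1g, Tyrobp and Fcgr3 in NK cells, Tyrobp and Fcer1g in pDC and Fcgr2b in B cells lie above Lyz2 and the C1q genes on average. Cst3, Ctsb and Cd68 lie above Fcer1g in pDC, Apoe and Cst3 lie above Fcgr2b in B cells, and in T cells the C1q genes lie above all 6 and Lyz2 and Csf1r below them.

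Between the genotypes, levels in macrophages and monocytes differed by less than the tests could call. In the 4 phagocyte classes, 24 tests gave log2 differences (cKO over WT) of -0.18 to 0.20 with SEs of 0.11 to 0.17, 95% intervals within -0.44 to 0.57, and a lowest adjusted p of 0.933 (edgeR quasi-likelihood test, Benjamini-Hochberg over all genes of the class). None of the 24 had an unadjusted p under 0.05, and DESeq2 called 0 of the 6 genes in macrophages and 0 in monocytes. Of all genes in these 4 classes together, 0.00636% were called. Among the 6 genes in macrophages, Fcgr2b lay furthest from 0, at 736 and 671 CPM in the cKO libraries against 827 and 759.6 CPM in the WT libraries. Its 2 genotypes did not overlap, as was so for 34.3% of all genes tested in macrophages. Fcgr1 overlapped in macrophages, with 443 and 520.1 CPM in the cKO libraries against 462 and 495 CPM in the WT libraries. Fcgr3 overlapped with 443 and 476 CPM in cKO macrophages against 483 and 427 CPM in WT macrophages. Fcgr4 did so with 317 and 394 CPM in cKO macrophages against 388 and 338 CPM in WT macrophages. Of 13010 genes tested in macrophages edgeR called 0 (5.45% had an unadjusted p under 0.05; DESeq2 called 10), and of 13210 in monocytes 0 (3.75%; DESeq2 called 14). With 1 library left out, edgeR called 4 genes in macrophages without cKO-1, 0 without cKO-2, 140 without WT-1 and 115 without WT-2, and in monocytes 3, 23, 157 and 17 in the same order, none of them among the 6. None of the 102 tests of the 6 genes in the 17 phagocyte clusters was called either, with log2 differences of -0.24 to 0.52, a lowest adjusted p of 0.752 and 2 unadjusted p under 0.05, where 0.0162% of all gene tests were called.

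In NK cells the log2 differences were -0.03 ± 0.10 for Fcgr3, -0.03 ± 0.11 for Fcer1g and 0.07 ± 0.10 for Tyrobp (SE). Those of the other 3 genes, which NK cells held at 3.0 to 4.0% of the phagocyte level, reached from -0.21 to 0.40. The highest was that of Fcgr4, at 8.44 and 14.9 CPM in cKO NK cells against 11.02 and 7.66 CPM in WT NK cells (0.40 ± 0.25, SE), and the genotypes overlapped. The lowest adjusted p of the 6 genes was 0.942 (edgeR). None had an unadjusted p under 0.05, DESeq2 called 0 of them, and edgeR called 0 of 12192 genes in NK cells (5.93% had an unadjusted p under 0.05; DESeq2 called 7). With 1 library left out, edgeR called 34 genes in NK cells without cKO-1, 35 without cKO-2, 232 without WT-1 and 4 without WT-2, none of them among the 6. The difference of the genotype effect between NK cells and macrophages, and between macrophages and monocytes, was called for none of the 6 genes, against 0.145% and 0.0365% of all genes in the same interaction tests. In neutrophils all 6 log2 differences were above 0, from 0.06 to 0.75, with intervals of -0.57 to 1.56 and a lowest adjusted p of 0.637 (edgeR); 0 of 4417 genes were called there (8.49% had an unadjusted p under 0.05; DESeq2 called 0), and 6 to 41 with 1 library left out.

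Over the 18 classes, 105 tests of the 6 genes could be made, and 4 passed an adjusted p of 0.05 in edgeR, each lower in cKO, where 0.0634% of all gene tests in these classes were called. They were Fcgr1, Fcgr3 and Fcgr4 in pDC and Fcer1g in B cells. In pDC 58 of 9546 genes (0.608%) were called, 54 of them (0.566%) lower, and in B cells 6 of 8809 genes (0.0681%), 5 of them (0.0568%) lower. With 1 library left out these counts were higher, in pDC 162 without cKO-1, 232 without cKO-2, 175 without WT-1 and 134 without WT-2, and in B cells 84, 148, 130 and 86 in the same order. The called genes were low in these classes, as Fcgr1, Fcgr3 and Fcgr4 in pDC stood at 5.6 to 7.0% of the phagocyte level and Fcer1g in B cells at 13.2%.

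**Figure D3:**
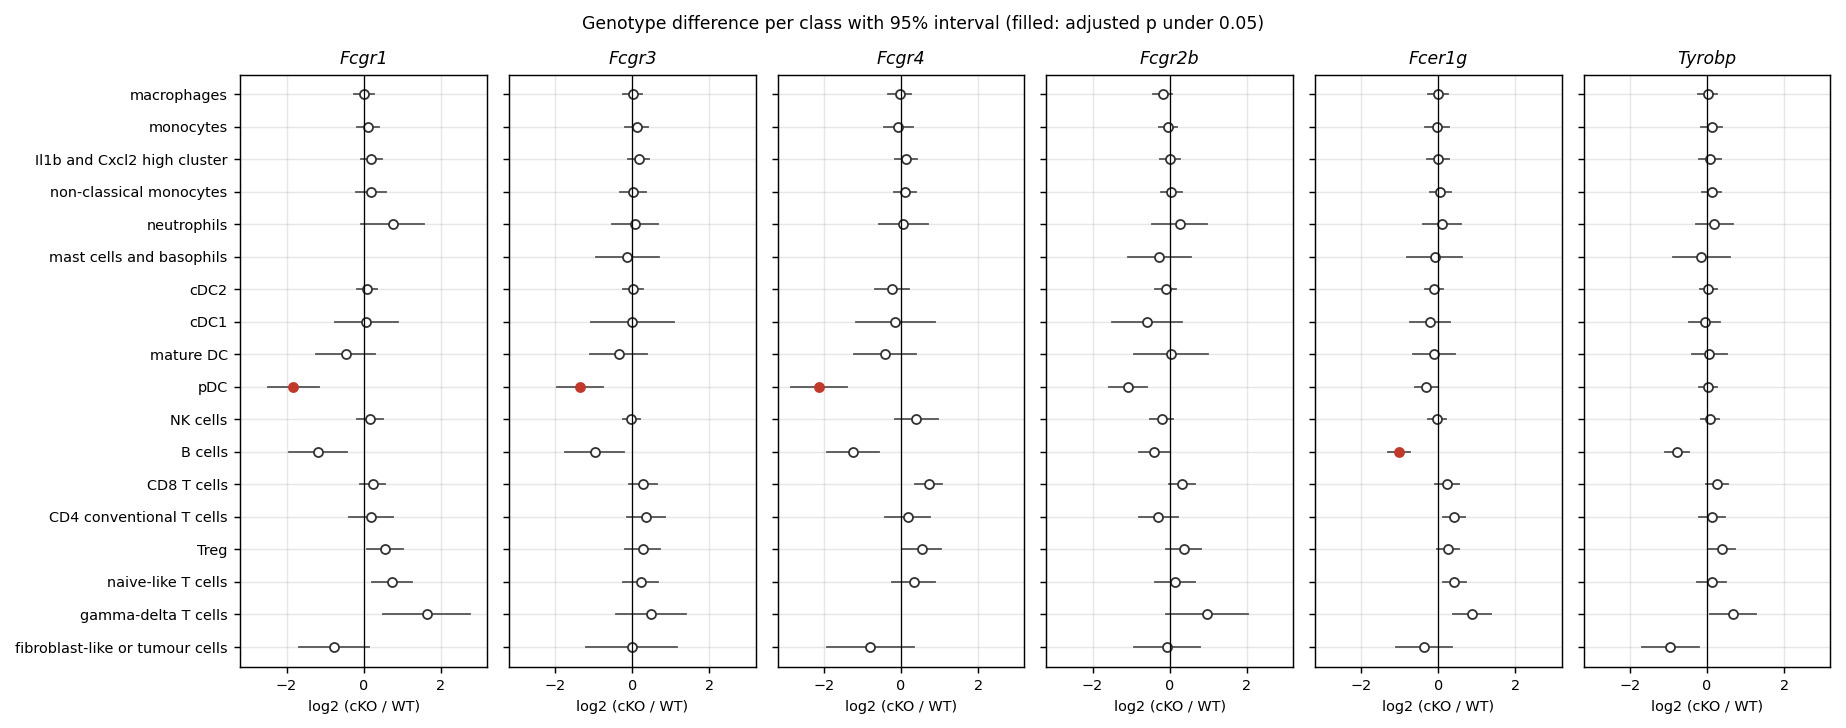
Genotype differences of the 6 genes by class: the x axis is the log2 ratio of cKO to WT with its 95% interval (edgeR), the y axis lists the classes, and filled red marks have an adjusted p under 0.05. The intervals of macrophages lie within -0.42 to 0.27, those of monocytes within -0.44 to 0.40 and those of NK cells within -0.52 to 0.95, and the called differences are Fcgr1, Fcgr3 and Fcgr4 in pDC and Fcer1g in B cells.

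In pDC, Fcgr1 measured 11.9 and 9.8 CPM in the cKO libraries against 31.4 and 44.7 CPM in the WT libraries, a log2 difference of -1.82 ± 0.30 (SE; adjusted p = 0.0144, edgeR). Fcgr4 measured 7.2 and 6.0 CPM in the cKO libraries against 25.6 and 32.0 CPM in the WT libraries (log2 difference -2.13 ± 0.34, adjusted p = 0.0109, edgeR). Fcgr3 measured 13.5 and 14.0 CPM in the cKO libraries against 41.0 and 32.3 CPM in the WT libraries (log2 difference -1.36 ± 0.28, adjusted p = 0.0457, edgeR). The genotypes did not overlap for any of these, nor for 37.1% of all genes tested in pDC. Fcgr2b, at 47.7 and 36.3 CPM in the cKO libraries against 71.9 and 103 CPM in the WT libraries, missed the threshold (log2 difference -1.08 ± 0.23, adjusted p = 0.059, edgeR). Fcer1g (-0.31 ± 0.14) and Tyrobp (0.03 ± 0.11), the chains that pDC themselves hold at a high level, did not pass. Without WT replicate 1 the Fcgr3 difference was -1.20 with an adjusted p of 0.056 in edgeR, and DESeq2 gave it an adjusted p of 0.271.

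The summed macrophage markers were also lower in cKO pDC, while the summed monocyte markers and pDC markers differed little between the genotypes. The 8 macrophage markers together measured 216 and 184 CPM in cKO pDC against 362 and 897 CPM in WT pDC, and Mrc1 alone of them was at 0, in both cKO libraries. The 8 monocyte markers summed to 6824 and 7140.2 CPM in cKO pDC against 7313 and 7153 CPM in WT pDC, while the 7 pDC markers summed to 14131 and 13769 CPM against 13730.4 and 13986 CPM, cKO against WT. Among the 54 genes called lower in pDC were 7 myeloid markers, Adgre1, Apoe, Ccr2, Chil3, Csf1r, Lst1 and Lyz2, while 4 genes were called higher. Ccr2 and Chil3, with log2 differences of -1.05 and -2.84, belong to the 8 monocyte markers whose sum differed little. Of the listed genes, Csf1r, the receptor of the macrophage growth factor, had a log2 difference of -2.11, Lyz2 of -1.86 and Cxcl9, an interferon-induced chemokine, of -4.35 in pDC. Of the 3 activating receptors together pDC held 41 and 79 UMIs in the cKO libraries against 184 and 334 in the WT libraries. Cells with 3 or more of these UMIs numbered 4 of 91 and 4 of 207 in the cKO libraries against 16 of 160 and 18 of 290 in the WT libraries, and they held 39.0% and 45.6% of the UMIs in cKO pDC against 89.1% and 83.5% in WT pDC.

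When cells with more than 20 UMIs per 10000 from Lyz2, C1qa, C1qb, C1qc, Apoe and Csf1r together were left out, a step chosen after seeing the data, 0 and 4 pDC of the cKO libraries and 9 and 16 of the WT libraries were removed. Fcgr1 in pDC was then at 11.9 and 6.94 CPM in the cKO libraries against 10.9 and 14.9 CPM in the WT libraries (log2 difference -0.54 ± 0.42, adjusted p = 0.948, edgeR). Fcgr3 was at 13.5 and 8.48 CPM in the cKO libraries against 13.3 and 12.7 CPM in the WT libraries (adjusted p = 0.967, edgeR), and Fcgr4 at 7.16 and 3.09 CPM in the cKO libraries against 8.47 and 8.71 CPM in the WT libraries (adjusted p = 0.908, edgeR). Fcgr1 and Fcgr3 then overlapped between the genotypes and Fcgr4 did not. None of the 6 genes was called, and edgeR called 1 of 9396 genes. Lyz2, Apoe and Csf1r, on which cells were removed, were themselves called lower in cKO pDC, and more WT than cKO cells were removed. A smaller gap can thus follow from the choice of cells, and its cause was not tested. With the mixed droplets kept in, the adjusted p of the 3 receptors in pDC was 0.811, 0.909 and 0.501 (Fcgr1, Fcgr3 and Fcgr4, edgeR).

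In B cells Fcer1g measured 250.1 and 256 CPM in the cKO libraries against 508 and 519 CPM in the WT libraries, a log2 difference of -1.01 ± 0.13 (SE; adjusted p = 0.0263, edgeR). The other 5 genes of B cells had log2 differences below 0 as well and did not pass, from -0.39 ± 0.18 for Fcgr2b (adjusted p = 0.462, edgeR) to -1.24 ± 0.31 for Fcgr4 (adjusted p = 0.168, edgeR), with Tyrobp at -0.78 ± 0.14 (adjusted p = 0.0637, edgeR). All 6 kept the genotypes apart in B cells, as did 42.0% of all genes tested there. The other genes called in B cells were Chil3, F13a1, Ly6c2 and Lilrb4a, lower in cKO, of which the first 3 mark monocytes, and Dusp2 was called higher. The 8 monocyte markers summed to 1070 and 1354 CPM in cKO B cells against 1822 and 2258 CPM in WT B cells. The 8 macrophage markers summed to 429 and 567 CPM against 1249 and 597 CPM and the B cell markers to 7883 and 7969 CPM against 6849.6 and 6613 CPM, cKO against WT. None of the macrophage markers was at 0 in any library of B cells. Without the cells of many myeloid UMIs, Fcer1g in B cells measured 208 and 218 CPM in the cKO libraries against 218 and 351 CPM in the WT libraries, and was not called (log2 difference -0.45 ± 0.21, adjusted p = 0.666, edgeR). Between 1 and 5 of the 6 genes were called in B cells when 1 library was left out, 1 without cKO-1, 3 without cKO-2, 2 without WT-1 and 5 without WT-2.

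**Figure D4:**
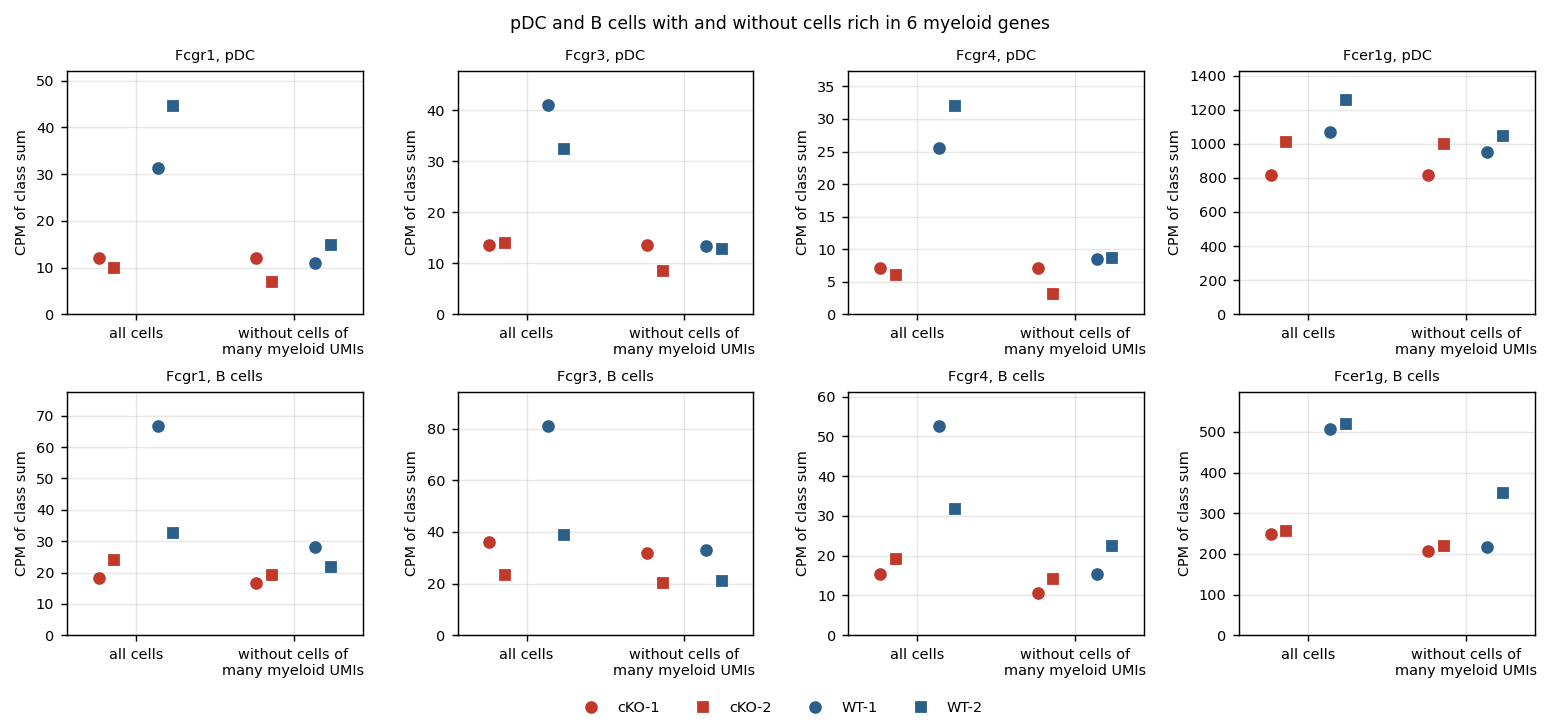
Levels in pDC and B cells with all cells and without cells of many myeloid UMIs: the y axis is CPM of the class sum, and each mark is 1 library (cKO red, WT blue). The gap between cKO and WT pDC in Fcgr1, Fcgr3 and Fcgr4 is smaller without those cells, where WT pDC held 10.9 and 14.9 CPM of Fcgr1.

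Tests of the difference itself (an interaction term in edgeR, for pairs of classes mostly chosen after seeing the data) set pDC and B cells against other classes. Apart from pDC and B cells against macrophages, the pairs were chosen because a gene lay lower in cKO in the first class and higher in the second. For such genes the direction was set by the choice, on the same counts as the test. Macrophages were set beside pDC and B cells after genes among the 6 had been called lower in cKO there. The direction of those called genes was therefore not free either. Against macrophages, 3 of the 6 genes passed in pDC, where 0.604% of all genes did, and 3 in B cells, where 0.726% did. Without the cells of many myeloid UMIs, none of the 6 passed in pDC, where 0.0232% of all genes did, and none in B cells, where 0.387% did. Against all T cells, 5 genes passed in pDC (0.74% of all genes) and 5 in B cells (1.37%). Against gamma-delta T cells, 2 passed in pDC (0.601%), 3 in B cells (1.29%), 1 in macrophages (0.188%) and 1 in NK cells (0.128%). Against the Il1b and Cxcl2 cluster, 4 passed in pDC (0.663%) and 3 in B cells (0.428%). Against NK cells, 2 passed in pDC (0.224%) and 3 in B cells (0.843%). B cells differed in 2 genes from cDC2 (0.475%) and in 3 from neutrophils (0.731%).

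In T cells, where Trim25 was ablated per the series title, all 6 genes had log2 differences above 0, from 0.22 to 0.55, and none was called, as against 0.0323% of all genes (lowest adjusted p 0.186 for Fcgr4, edgeR). Of the 6, 5 had an unadjusted p under 0.05, as had 8.18% of all genes tested, and DESeq2 called 0. Fcgr4 measured 39.5 and 39.4 CPM in cKO T cells against 31.5 and 23.7 CPM in WT T cells, and 32.5 and 35.5 CPM against 23.4 and 18.9 CPM in the CD8 T cells alone, cKO against WT. The 6 genes stood in pooled T cells at 7.5 to 16.1% of their phagocyte levels, within the range of the 12 background genes, which ran from 4.2% for Lyz2 and 5.7% for Csf1r to 33.2% for C1qa. The 8 macrophage markers summed over all T cells to 1206 and 1081 CPM in the cKO libraries against 896 and 837 CPM in the WT libraries. Without the cells of many myeloid UMIs, Fcgr4 in pooled T cells measured 21.1 and 19.4 CPM in the cKO libraries against 18.2 and 14.5 CPM in the WT libraries (log2 difference 0.34 ± 0.16, SE; adjusted p = 0.640, edgeR). Fcgr1 then measured 20.6 and 23.8 CPM in cKO T cells against 20.4 and 20.8 CPM in WT T cells, and none of the 6 genes was called. In CD8 T cells 0.0349% of all genes and none of the 6 were called. With 1 library left out, calls among the 6 genes moved in CD8 T cells. The log2 difference of Fcgr4 there was 0.79 without cKO replicate 1 and 0.86 without WT replicate 1. That of Fcer1g was 0.48 without WT replicate 2 (all edgeR).

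Levels of some other genes of the pathway, chosen after their values were seen, are given here as examples. Syk, the kinase that ITAMs recruit, averaged 798 CPM in B cells, 484 CPM in neutrophils, 323 CPM in monocytes and 157 CPM in macrophages, against 31 CPM in NK cells and 11 CPM in T cells, which held its relative Zap70 at 41 CPM and 61 CPM. Of the 25 listed partner receptors of the chains, Siglech, a Tyrobp partner, stood at 2344 CPM in pDC, Klrk1, the activating receptor NKG2D, at 830 CPM in NK cells, and Clec4d and Clec4e, C-type lectins that use the gamma chain, at 931 CPM and 762 CPM in neutrophils. Fcer1a and Ms4a2, the other subunits of the IgE receptor, stood at 1175 CPM and 656 CPM in mast cells and basophils. Trem2, a Tyrobp partner, was at 54 CPM in macrophages.

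Between the genotypes none of the listed pathway genes was called in macrophages, monocytes, NK cells or neutrophils (edgeR). In macrophages the 24 Src and Syk kinases and adaptors had a median log2 difference of -0.05, with 10 of 24 above 0, the 22 inhibitory receptors and phosphatases of -0.03 (7 above 0) and the 24 phagocytic and oxidase genes of -0.04 (10 above 0), beside a median of 0.00 over all genes tested. Of 25 partner receptors of the chains, 23 were tested in macrophages, with a median of 0.04, and of 14 interferon gamma targets 12, with a median of 0.01. Of 11 other Fc receptor genes 6 were tested, with a median of -0.23 and 2 above 0. Sirpb1b, an activating receptor that pairs with Tyrobp, measured 193 and 217 CPM in cKO macrophages against 253 and 277 CPM in WT macrophages (adjusted p = 0.865, edgeR). Fgr, a Src family kinase, measured 137 and 131 CPM in cKO macrophages against 159.7 and 178 CPM in WT macrophages. Clec4d measured in monocytes 130.2 and 102 CPM in the cKO libraries against 79.8 and 83.5 CPM in the WT libraries (adjusted p = 1.00, edgeR). Cyba, a subunit of the phagocyte oxidase, measured in monocytes 486 and 509 CPM in the cKO libraries against 375 and 397 CPM in the WT libraries. Lamp1, a lysosomal membrane protein, measured 285 and 268 CPM in cKO macrophages against 189.6 and 233 CPM in WT macrophages, and also did not pass. In pDC the called list genes were lower in cKO. They were 4 of 12 genes of a myeloid background list, 2 of 21 inhibitory genes, 2 of 12 partner receptors, 2 of 24 phagocytic genes and 1 of 11 interferon gamma targets, where 0.566% of all genes were called lower.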

How the data were processed

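Single-cell RNA was captured with a Chromium 3′ v3 kit, per the labels' protocols, and the authors deposited 1 matrix of raw UMI counts per library; the submitters' processing notes name Cell Ranger, STAR and mm10 with no versions. Kept cells had 300 or more genes, 500 or more UMIs and a mitochondrial share of 15% or less. They were clustered in scanpy 1.11.5 (2000 variable genes without the 6 genes, Trim25, Vsir and Cd4; 30 components, 15 neighbours, Leiden resolution 1) and named from marker lists. Scrublet's own threshold marked 0 doublets, so cells in clusters with a median score above 0.1, or with a score above 0.2, were set aside as mixed droplets. UMIs were then added up by library and class, for classes of 20 or more cells in each library, and tested with edgeR 4.0.16 (quasi-likelihood, TMM scaling, filterByExpr, two-sided, Benjamini-Hochberg over all genes of the class, threshold 0.05), with DESeq2 1.42.0 as an alternative. The script was tested on simulated data from these libraries, where it recovered 76.5% of genes changed by log2 1 in macrophages, 64.5% in monocytes and 78.4% in NK cells. In the same simulations 27 of 196 calls were false in macrophages, 17 of 169 in monocytes and 12 of 186 in NK cells. Each is a larger share than the threshold of 0.05. With 2 libraries a side the smallest p of an exact permutation test is 0.333, so none was used. The 6 genes and all lists were chosen with earlier results of these data known. Named genes are the 6 genes, all listed pathway genes past the threshold in macrophages, monocytes, neutrophils or NK cells, or else the 2 of lowest unadjusted p in macrophages or monocytes, of which some are printed, and for each of the 6 the 3 most alike across classes; genes called in pDC and B cells and genes given as levels by class were named after their values were seen.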

Additional observations from a re-analysis of the deposited data

Results flagged for a closer look

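In 40 cases the genotype difference of 1 of the 6 genes differed between 2 cell classes by a test of the difference itself (interaction term, edgeR quasi-likelihood test with library, class and class by genotype terms, Benjamini-Hochberg over all genes of each pair of classes). They are 40 of 131 tests in the 22 pairs of classes fitted with all cells. Of all genes tested in each of these pairs, between 0.0214% and 1.37% were called. The fits without the cells of many myeloid UMIs are not among these 22 pairs. The values below are differences of 2 log2 differences (cKO over WT), the first class minus the second, and each is below 0. Apart from macrophages against monocytes and NK cells against macrophages, the pairs were chosen after seeing the data, for classes whose genotypes lay apart in opposite directions or to set pDC and B cells against macrophages. In the pairs of opposite directions, the first class is always the one where a gene already lay lower in cKO. For such genes the sign below 0 was therefore set by the choice of the pair, on the same counts as the test. The comparisons of pDC and B cells with macrophages were added after genes among the 6 had been called lower in cKO there. The signs of those called genes were not free either.

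Against macrophages, the difference of pDC was -1.86 for Fcgr1 (adjusted p = 0.0052), -1.38 for Fcgr3 (adjusted p = 0.0125) and -2.17 for Fcgr4 (adjusted p = 0.0053). The difference of B cells from macrophages was -1.02 for Fcer1g (adjusted p = 0.00097), -0.82 for Tyrobp (adjusted p = 0.0115) and -1.23 for Fcgr4 (adjusted p = 0.0374). Without the cells of many myeloid UMIs none of the 6 genes passed against macrophages, with Fcgr4 in pDC at -0.97 (adjusted p = 0.921) and Fcer1g in B cells at -0.37 (adjusted p = 0.551).

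Against the pooled T cells, pDC differed by -2.21 for Fcgr1, -1.25 for Fcgr2b, -1.65 for Fcgr3, -2.70 for Fcgr4 and -0.60 for Fcer1g. B cells differed from the T cells by -1.52 for Fcgr1, -1.24 for Fcgr3, -1.77 for Fcgr4, -1.29 for Fcer1g and -1.02 for Tyrobp. Against gamma-delta T cells, pDC differed by -3.54 for Fcgr1 and -1.28 for Fcer1g, and B cells by -2.76 for Fcgr1, -1.95 for Fcer1g and -1.50 for Tyrobp. Macrophages and NK cells differed from gamma-delta T cells as well, by -0.97 and -0.98 for Fcer1g. In gamma-delta T cells Fcer1g measured 351 and 394 CPM in the cKO libraries against 144.5 and 245 CPM in the WT libraries (adjusted p = 0.358, not called), and Fcgr1 42.5 and 38.0 CPM in the cKO libraries against 10.3 and 14.1 CPM in the WT libraries (adjusted p = 0.534, not called).

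From the Il1b and Cxcl2 cluster, pDC differed by -2.09 for Fcgr1, -1.10 for Fcgr2b, -1.58 for Fcgr3 and -2.36 for Fcgr4, and B cells by -1.37 for Fcgr4, -1.01 for Fcer1g and -0.86 for Tyrobp. From NK cells, pDC differed by -1.97 for Fcgr1 and -2.58 for Fcgr4, and B cells by -1.60 for Fcgr4, -0.98 for Fcer1g and -0.85 for Tyrobp. B cells also differed from cDC2 by -0.88 for Fcer1g and -0.80 for Tyrobp, and from neutrophils by -1.88 for Fcgr1, -1.07 for Fcer1g and -0.93 for Tyrobp.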

How the results depend on the processing

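With 2 libraries per genotype and low levels outside phagocytes, calls moved with the processing. Of 378 alternatives of single values 316 kept direction and call, 32 reversed, 17 were newly called and 13 lost; the cause was not tested unless stated. The Il1b and Cxcl2 cluster did not form at 2000 or more UMIs per cell and gave no value there. The 3 activating receptors together gave 41 to 334 UMIs per library in pDC, so values there rest on few counts.

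Whether the replicate numbers pair cKO with WT libraries is not stated, and the libraries were treated as unpaired. The correlation of same-numbered deviations was -0.1483 to 0.1484 over classes, which cannot decide this with 2 libraries per genotype. With the replicate block, 0 of the 6 genes were called in B cells, 1 in CD8 T cells (Fcgr4, adjusted p = 0.00958) and 4 in pDC, and 0 genes overall in B cells, 142 in pDC and 0 in pooled phagocytes.

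In B cells the genes called among the 6 (1 as reported) were 5 with no filter on low counts, 2 in DESeq2, 0 at Leiden resolution 2, 0 at 2000 or more UMIs, 0 without cells of many myeloid UMIs, and 1 to 5 when 1 library was left out. In pDC (3 as reported) they were 0 with mixed droplets kept and 0 without cells of many myeloid UMIs. With no filter, 1 was called in CD8 T cells, 1 in fibroblast-like cells and 1 in pooled T cells. When 1 library was left out, calls among the 6 genes also moved in CD8 T cells, cDC1, gamma-delta T cells and fibroblast-like cells. Such a fit leaves 1 library in a genotype, so only log2 differences are given for these classes. In cDC1 that of Fcgr2b was -1.20 without cKO replicate 2, and in gamma-delta T cells that of Fcer1g was 1.39 without WT replicate 2. In fibroblast-like cells those of Fcer1g and Tyrobp were -1.02 and -1.59 without cKO replicate 2.

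Over all genes, B cells (6 called) had 21 with RLE scaling, 309 with no filter, 43 in DESeq2, 52 with mixed droplets kept, 21 with the 6 genes among the clustering genes, 3 at 2000 or more UMIs, and 84 to 148 with 1 library left out. pDC (58) had 221 with no filter, 0 with mixed droplets kept, 1 without cells of many myeloid UMIs and 134 to 232 with 1 library left out. NK cells (0) had 145 with no filter, 7 in DESeq2 and 4 to 232 with 1 library left out. Macrophages (0) had 10 in DESeq2 and 0 to 140 with 1 left out. Monocytes (0) had 91 with no filter, 14 in DESeq2, 1 at Leiden resolution 2, 1 with the 6 genes clustered, 1 at 2000 or more UMIs and 3 to 157 with 1 left out. Pooled phagocytes (2) had 137 in DESeq2 and 4 to 129 with 1 left out.

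Reversed log2 differences, none of them called, were in macrophages Fcgr1 at -0.0121 (Leiden resolution 2), -0.0149 (6 genes clustered) and -0.0251 (2000 UMIs), and Fcgr3 at -0.0205 and -0.0015 (the first pair of settings). In monocytes Fcgr2b was at 0.0679, 0.2131 and 0.0705 under the same settings, and Fcgr4 at 0.1050 (6 genes clustered). In NK cells Fcgr1 was at -0.0057 (Leiden resolution 2) and Fcgr3 at 0.0101 (mixed droplets kept). In B cells Fcgr2b was at 0.0339 (Leiden resolution 2) and 0.0082 (without cells of many myeloid UMIs), and Fcgr3 at 0.1670 (Leiden resolution 2) and 0.0325 (2000 UMIs). With 1 library left out, macrophages ranged from -0.12 to 0.12 for Fcgr1, -0.0685 to 0.0897 for Fcgr3, -0.20 to 0.12 for Fcgr4, -0.10 to 0.0745 for Fcer1g and -0.0437 to 0.0855 for Tyrobp. Monocytes ranged from -0.0295 to 0.23 for Fcgr1, -0.0215 to 0.25 for Fcgr3, -0.37 to 0.18 for Fcgr4 and -0.16 to 0.0932 for Fcer1g, and NK cells from -0.0859 to 0.73 for Fcgr4 and -0.12 to 0.0591 for Fcer1g. Fcer1g in macrophages was 3130 CPM at 2000 or more UMIs. Shares of cells with a UMI moved with depth by construction: without thinning and at 4000 UMIs they were 75.0% and 76.5% for Fcgr1 and 69.9% and 63.4% for Fcgr4 in macrophages, and 49.6% and 24.4% for Fcgr3 and 99.7% and 99.6% for Fcer1g in NK cells.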
